A study of Mus musculus with 16 samples.

Results

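The satellite glial genes examined here are *Apoe*, *Fabp7*, *Glul*, *Cdh19*, *Sox10*, *Gja1*, *Slc1a3*, *Ednrb*, *S100b* and *Acsbg1*. They are 10 of the 22609 gene symbols counted in each library. They were picked by symbol, by a rule that states no measured value but was written with earlier results of these data known. RNA-seq was performed on TdTomato+ cells sorted from sensory ganglia of male C57BL/6J mice that were naïve and 8 to 12 weeks old. In these *Pirt*/TdTomato mice, a Cre recombinase under control of the sensory neuron gene *Pirt* switches on the red fluorescent protein TdTomato from the *Rosa26* locus, so the animals of all groups carry both alleles. Cells from the trigeminal ganglion (TG), the nodose and jugular ganglion complex (NG/JG), the lumbar dorsal root ganglia L3-L5 (L3-L5 DRG) and the thoracolumbar dorsal root ganglia T10-L1 (T10-L1 DRG) gave 4 libraries each, 16 in all. The sort kept medium to bright TdTomato+ cells in consecutive passes, so a library is a population of cells and not a single cell. Nothing in the descriptions ties a library to 1 animal, and p-values therefore measure the spread between these libraries only.

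Satellite glial cells wrap the cell bodies of sensory neurons in a closed sheath. They arise from the neural crest together with Schwann cells, take up and recycle glutamate, buffer potassium, handle lipids and couple to each other through gap junctions. Because the sheath adheres to the neuron, its RNA can accompany neurons through dissociation and sorting. None of the 10 genes belongs to satellite glia alone. *Sox10*, *S100b* and *Cdh19* are also known in Schwann cells, *Slc1a3*, *Glul* and *Gja1* in astrocytes, and *Apoe* in macrophages.

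Libraries held between 4735624 and 13333318 reads on genes. Values are given as CPM, counts scaled to 1000000 reads on genes. The floor was set at a count of 3, or 0.225 to 0.634 CPM depending on the library. Several libraries stood apart before any comparison. TG library 1 had reads on 11527 genes, against 14441 to 15354 in the other 3 TG libraries, and its counts differed from theirs by a chi-square of 181 to 202 per gene, where those 3 differed from each other by 26.2 to 28.8. In L3-L5 DRG library 4, 66.6% of uniquely aligned reads lay outside annotated genes, against 29.6% to 51.5% elsewhere. The animals were labelled male, yet all 16 libraries held reads on *Xist*, the RNA of the inactive X chromosome, with counts of 1279 to 8362, and none held a read on any of 10 genes of chromosome Y.

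All 10 genes had reads in all 16 libraries, although *Slc1a3* had only 2 in NG/JG library 4, under the floor, and all 10 passed the filter on low counts in each comparison. Levels are compared between genes as RPKM, which divides CPM by the exon length in kilobases. *Apoe*, a lipid-carrying apolipoprotein, was the most abundant of all 21627 genes with a known length, at a mean of 13986 RPKM over the 16 libraries. *Fabp7*, a fatty-acid-binding protein of glia, came next among the 10 at 1203 RPKM and ranked 21 of the 21627. *S100b*, a calcium-binding protein of glia, averaged 375 RPKM, *Cdh19*, an adhesion molecule of neural crest glia, 330.2 RPKM and *Ednrb*, the type B endothelin receptor, 182 RPKM. *Acsbg1*, which activates long-chain fatty acids, averaged 125 RPKM and *Sox10*, the transcription factor of the glial lineage, 106 RPKM. Lower levels were found for *Glul*, the glutamine synthetase, at 73.8 RPKM, and for *Gja1*, the gap junction protein connexin 43, at 46.9 RPKM. *Slc1a3*, the glial glutamate transporter, was last at 6.75 RPKM.

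Summed over the 10 genes, these reads were a large share of every library. In TG they made up 2.43%, 5.50%, 6.42% and 6.18% of reads on genes in libraries 1 to 4. NG/JG libraries followed with 3.51%, 3.04%, 4.36% and 2.92%. L3-L5 DRG had 2.90%, 1.86%, 1.23% and 1.92%, and T10-L1 DRG had 2.80%, 2.30%, 1.95% and 2.96%. TG libraries 2 to 4 were above all 12 libraries of the other ganglia, whereas TG library 1 fell among the DRG libraries. The widest 95% Wilson interval of any of these shares spanned 0.0398 percentage points, so counting error was small beside the spread between libraries. Intervals and floors describe only the error of counting reads, which had no molecular identifiers. As summed levels, TG had 51315 ± 18451 CPM (SD, n = 4), NG/JG 34578 ± 6548 CPM, T10-L1 DRG 25026 ± 4606 CPM and L3-L5 DRG 19806 ± 6902 CPM. No test was made on this sum, which is a description of the libraries. In sorted populations such as these, fewer glial cells and less RNA per glial cell cannot be told apart.

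Most of this sum was *Apoe*, which held between 72.4% and 91.6% of the reads on the 10 genes. Without *Apoe* the order changed. The other 9 genes summed to 6057 ± 434 CPM in NG/JG, 5265 ± 1780 CPM in T10-L1 DRG, 5107 ± 716 CPM in TG and 3530 ± 1315 CPM in L3-L5 DRG. The lead of TG in the full sum was thus a lead of *Apoe*, and without it TG and T10-L1 DRG lay closer together than the spread within either.

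The cells were labelled as *Pirt*+ neurons, and neuronal transcripts were present in all 16 libraries. *Pirt* itself ranged from 16.8 to 307.7 CPM. A list of 12 neuronal markers (*Pirt*, *Tubb3*, *Uchl1*, *Snap25*, *Prph*, *Nefl*, *Nefm*, *Stmn2*, *Elavl4*, *Avil*, *Scn9a* and *Syt1*) summed to between 1497 CPM in TG library 1 and 15958 CPM in L3-L5 DRG library 3. The 10 satellite glial genes together outweighed these 12 markers in 15 of 16 libraries. The exception was L3-L5 DRG library 3, with 12326 CPM for the 10 genes against 15958 CPM for the 12 markers, a ratio of 0.772. Such a ratio depends on which genes are listed and does not measure all glial against all neuronal RNA. In L3-L5 DRG library 2 the ratio was 1.39, and in the other 14 libraries it ran from 3.33 to 17.4. Even without *Apoe*, the other 9 genes outweighed the neuronal list in 9 of 16 libraries. In TG the ratio of the full sums was 16.2, 17.4, 12.7 and 11.9 in libraries 1 to 4, and outside TG it was above 10 only in NG/JG library 1, at 16.1.

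**Figure D1:**
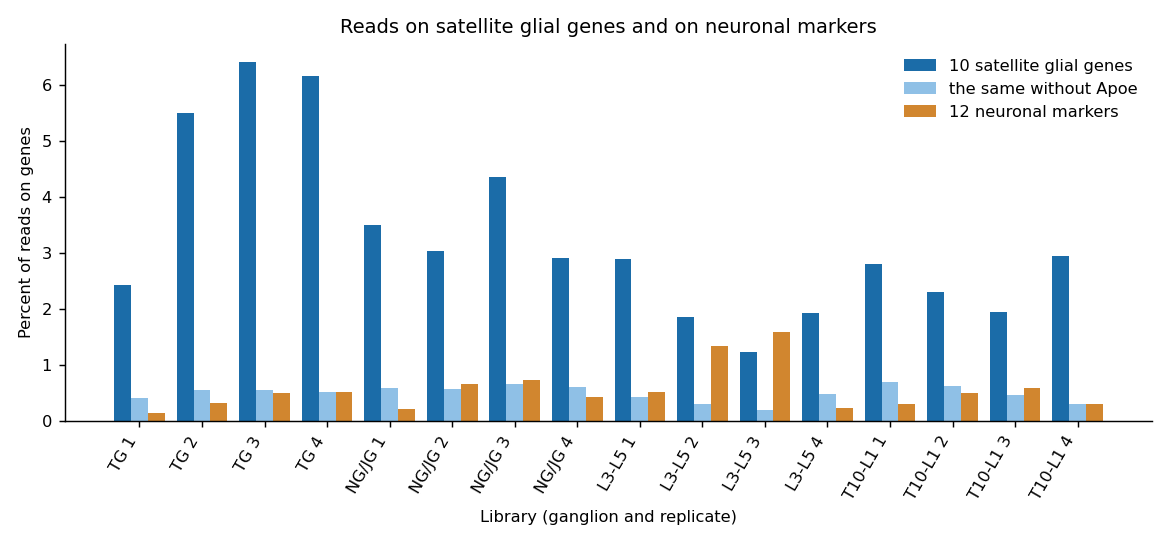
Percent of reads on genes (vertical axis) that fell on the 10 satellite glial genes, on the same genes without Apoe, and on 12 neuronal markers, in each of the 16 libraries (horizontal axis). The glial bar is the taller in 15 of 16 libraries, L3-L5 3 being the exception, and it is highest in TG libraries 2 to 4 at 5.50% to 6.42%.

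The genes of lipid handling are given first. *Apoe* (ENSMUSG00000002985.9, mm9 chromosome 7, 20281458 to 20284515, minus strand) had 20189, 49479, 58602 and 56560 CPM in the 4 TG libraries. In NG/JG it had 29212, 24765, 36985 and 23122 CPM, in L3-L5 DRG 24699, 15570, 10418 and 14421 CPM, and in T10-L1 DRG 21020, 16657, 14811 and 26557 CPM. TG libraries 2 to 4 were above every other library, and TG library 1 was below all 4 NG/JG libraries. Across the 4 ganglia, *Apoe* differed with an adjusted p of 0.0202 by edgeR's quasi-likelihood test. This call was lost when TG library 2, 3 or 4 was left out (adjusted p = 0.135 to 0.14) and without scaling factors (adjusted p = 0.0806). Fold changes here and throughout were scaled by TMM, which aligns the bulk of genes between libraries. In single pairs those of *Apoe* were 3.05 for TG over T10-L1 DRG (log2 1.61 ± 0.52 SE, adjusted p = 0.0953) and 3.80 for TG over L3-L5 DRG (log2 1.93 ± 0.67 SE, adjusted p = 0.158), neither past the threshold of 0.05. Without TG library 1 the same log2 values were 1.88 (adjusted p = 9.43e-04) and 2.21 (adjusted p = 0.00938) by the same test. That fit called more of all genes too, 26.7% against 5.87% and 15.2% against 0%. With all 8 libraries of each pair, DESeq2 gave *Apoe* adjusted p of 0.0058 and 0.00263. Both calls thus depended on this library and on the test.

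Macrophage markers were highest where *Apoe* was highest in both DRG groups, but not in TG or NG/JG. The 8 macrophage markers summed to 12482 CPM in T10-L1 DRG library 4 and 5028 CPM in L3-L5 DRG library 1, the libraries with the highest *Apoe* of their groups, against 585 to 807 and 60.4 to 528 CPM in the other 3 of each. In TG they summed to 3602, 2211, 1784 and 6673 CPM and did not follow *Apoe*, which was lowest in library 1. In NG/JG they summed to 2656, 69.9, 17.1 and 214 CPM, lowest in library 3, where *Apoe* was highest. Their part in the *Apoe* level was not tested.

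*Fabp7* (ENSMUSG00000019874.5, chromosome 10, 57504687 to 57508256, plus strand) had 861, 2488, 2656 and 2196 CPM in TG and 1952, 1539, 2885 and 1631 CPM in NG/JG. L3-L5 DRG libraries had 1270, 1252, 685 and 1009 CPM, and T10-L1 DRG libraries 1522, 914, 647 and 563 CPM. All 4 NG/JG libraries were above all 8 DRG libraries, narrowly so against T10-L1 DRG library 1, and again TG library 1 lay apart from the other 3. NG/JG over T10-L1 DRG was 2.33-fold (log2 1.22 ± 0.35 SE, adjusted p = 0.244) and NG/JG over L3-L5 DRG 2.07-fold (log2 1.05 ± 0.34 SE, adjusted p = 0.427). TG over T10-L1 DRG was 3.00-fold (log2 1.58 ± 0.46 SE, adjusted p = 0.0735). None of these passed the quasi-likelihood test with adjustment, and the test over all 4 ganglia gave an adjusted p of 0.0545.

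*Acsbg1* (ENSMUSG00000032281.5, chromosome 9, 54452684 to 54509677, minus strand) had the lowest adjusted p of the 10 genes over the 4 ganglia. It had 161, 106, 103 and 123 CPM in TG. In NG/JG it reached 858, 925, 1117 and 648 CPM. L3-L5 DRG had 393, 387, 314 and 424 CPM, and T10-L1 DRG 506, 472, 409 and 260.0 CPM. The ranges of TG, of the DRG libraries and of NG/JG did not overlap, while those of the 2 DRG levels did. TG, the highest ganglion by mean for *Apoe*, was the lowest for *Acsbg1*. *Acsbg1* differed over the 4 ganglia (adjusted p = 0.00116), fell by 2.66 ± 0.33 SE on the log2 scale in TG against NG/JG, with NG/JG 6.32-fold higher (adjusted p = 0.0158), and fell by 1.38 ± 0.28 SE in TG against T10-L1 DRG (adjusted p = 0.0277). TG against L3-L5 DRG gave -1.26 ± 0.29 SE, with an adjusted p of 0.0846 by the quasi-likelihood test and of 1.37e-04 by DESeq2. NG/JG was 2.54-fold above L3-L5 DRG and 2.27-fold above T10-L1 DRG, at adjusted p of 0.168 and 0.115 by the quasi-likelihood test and 0.00406 and 0.0106 by DESeq2.

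*S100b* (ENSMUSG00000033208.7, chromosome 10, 75716598 to 75723904, plus strand), the calcium-binding protein, was highest in TG. The 4 TG libraries had 839, 1690, 1296 and 1586 CPM. NG/JG had 271, 265, 441 and 208 CPM, L3-L5 DRG 228, 156, 194 and 582 CPM, and T10-L1 DRG 465, 242, 273 and 169 CPM. The lowest TG library was above the highest of the other 12, which was L3-L5 DRG library 4. Over the 4 ganglia the adjusted p was 0.00283. *S100b* rose 6.21-fold in TG over T10-L1 DRG (log2 2.63 ± 0.41 SE, adjusted p = 0.0254). The difference was as large over L3-L5 DRG, at 6.23-fold (log2 2.64 ± 0.52 SE), and 5.34-fold over NG/JG (log2 2.42 ± 0.39 SE), but the adjusted p were 0.0829 and 0.0732. By DESeq2 the same 2 differences had adjusted p of 1.32e-04 and 9.67e-05. Among NG/JG and the DRG libraries, group means lay between 288 and 296 CPM, and none of their 3 pairs passed by either tool.

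The 3 genes that differed over the 4 ganglia are shown with the 250 bases before their start site, to let their promoters be read beside these levels. The windows come from RefSeq on GRCm38.p6, a later build than that of the counts, and 8 of the 10 genes had one. Capitals mark ACAAAG or ACAATG on either strand, 2 short sequences that SOX proteins such as SOX10 are known to bind.
Apoe, chr7:19699189-19699438, minus strand: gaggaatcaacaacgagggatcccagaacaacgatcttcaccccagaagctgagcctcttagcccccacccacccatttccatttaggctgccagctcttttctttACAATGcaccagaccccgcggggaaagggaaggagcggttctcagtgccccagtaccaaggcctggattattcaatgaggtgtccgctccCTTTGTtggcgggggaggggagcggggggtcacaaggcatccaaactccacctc
S100b, chr10:76253586-76253835, plus strand: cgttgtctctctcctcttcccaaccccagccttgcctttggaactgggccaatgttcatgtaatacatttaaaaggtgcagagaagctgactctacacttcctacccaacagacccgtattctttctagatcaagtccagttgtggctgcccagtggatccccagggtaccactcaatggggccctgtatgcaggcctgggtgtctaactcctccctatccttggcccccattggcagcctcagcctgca
Acsbg1, chr9:54661886-54662135, minus strand: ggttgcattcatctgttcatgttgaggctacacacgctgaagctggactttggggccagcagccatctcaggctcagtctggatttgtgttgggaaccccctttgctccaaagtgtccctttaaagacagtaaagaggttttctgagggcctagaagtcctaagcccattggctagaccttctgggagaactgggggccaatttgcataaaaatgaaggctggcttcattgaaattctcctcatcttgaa
*Apoe* held both sequences, starting 144 bases (ACAATG) and 54 bases (ACAAAG, on the opposite strand) before its start. The other 7 windows held neither. Of all 32851 windows of this length, 16.5% held ACAAAG, 10.7% ACAATG and 25.2% at least 1 of them. A match is a description of letters and says nothing on binding, and the window of *Apoe* shown is 1 of 3 that RefSeq lists.

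The glutamate genes showed no difference between ganglia past the quasi-likelihood test. *Glul* (ENSMUSG00000026473.9, chromosome 1, 155747074 to 155756853, plus strand), which turns glutamate into glutamine, had 151, 269, 380 and 396 CPM in TG and 385, 241, 284 and 106 CPM in NG/JG. L3-L5 DRG had 211, 152, 177 and 220 CPM and T10-L1 DRG 223, 150.3, 258 and 329 CPM. The ranges overlapped in every pair, and the test over 4 ganglia gave an adjusted p of 0.397. Of its exon sequence, 67 bases (2.01%) overlap a gene on the other strand, where reads cannot be assigned if the counting ignored strand.

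*Slc1a3* (ENSMUSG00000005360.8, chromosome 15, 8584124 to 8660764, minus strand) was the most uneven member. It had 218 CPM in TG library 1 and 25.8, 37.3 and 40.0 CPM in the other TG libraries. NG/JG ran from 121 CPM in library 1 over 47.6 and 23.8 CPM to 0.207 CPM in library 4, which was 2 reads and below the floor. L3-L5 DRG had 44.5, 18.4, 27.6 and 32.5 CPM, and T10-L1 DRG 72.6, 76.6, 77.5 and 58.4 CPM. The 2 DRG levels did not overlap. L3-L5 DRG lay 2.40-fold below T10-L1 DRG (log2 -1.26 ± 0.32 SE), yet the adjusted p was 0.785 by the quasi-likelihood test and 0.0381 by DESeq2. Over the 4 ganglia the adjusted p was 0.767.

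The membrane genes *Gja1* and *Ednrb* followed another order, with T10-L1 DRG highest and TG lowest by mean. *Gja1* (ENSMUSG00000050953.8, chromosome 10, 56097106 to 56110225, plus strand) had 143, 74.6, 63.1 and 55.8 CPM in TG and 259, 47.5, 183 and 103 CPM in NG/JG. L3-L5 DRG had 163, 91.3, 95.1 and 148 CPM and T10-L1 DRG 295, 176, 314 and 117 CPM. *Ednrb* (ENSMUSG00000022122.7, chromosome 14, 104213842 to 104243390, minus strand), whose ligands are the endothelins, had 670, 338, 388 and 230 CPM in TG. In NG/JG it had 927, 573, 1150 and 1147 CPM, in L3-L5 DRG 671, 477, 209 and 912 CPM, and in T10-L1 DRG 1542, 1299, 656 and 546 CPM. Neither gene passed over the 4 ganglia (adjusted p = 0.471 for *Gja1* and 0.307 for *Ednrb*), and their groups overlapped in every pair. TG against T10-L1 DRG gave log2 values of -1.09 ± 0.39 SE for *Gja1* and -0.96 ± 0.40 SE for *Ednrb*, at adjusted p of 0.135 and 0.192. Without TG library 1 these became -1.38 (adjusted p = 0.0181) and -1.22 (adjusted p = 0.0362).

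Of the neural crest lineage genes, *Cdh19* (ENSMUSG00000047216.7, chromosome 1, 112785772 to 112873949, minus strand) had 739, 208, 273 and 237 CPM in TG. NG/JG had 882, 1824, 372 and 1753 CPM, L3-L5 DRG 1076, 439, 137 and 1103 CPM, and T10-L1 DRG 1902, 2589, 1800.1 and 804 CPM. All 4 TG libraries were below all 4 T10-L1 DRG libraries, and TG library 1 was the highest of its group. *Cdh19* fell by 1.96 ± 0.45 SE on the log2 scale in TG against T10-L1 DRG, so that T10-L1 DRG was 3.89-fold higher (adjusted p = 0.0374). The other pairs did not pass, with *Cdh19* at log2 -1.62 ± 0.56 SE in TG against NG/JG (adjusted p = 0.28) and -1.41 ± 0.60 SE in L3-L5 DRG against T10-L1 DRG (adjusted p = 0.785). *Sox10* (ENSMUSG00000033006.8, chromosome 15, 78985343 to 78994920, minus strand) varied least in TG, at 287, 361, 402 and 340.0 CPM. NG/JG had 192, 190 and 199 CPM and, in library 4, 478 CPM. L3-L5 DRG had 283 and 391 CPM in libraries 1 and 4 and 76.9 and 71.2 CPM in libraries 2 and 3, and T10-L1 DRG had 451, 434, 286 and 161 CPM. No pair passed for *Sox10*, and the adjusted p over 4 ganglia was 0.576.

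**Figure D2:**
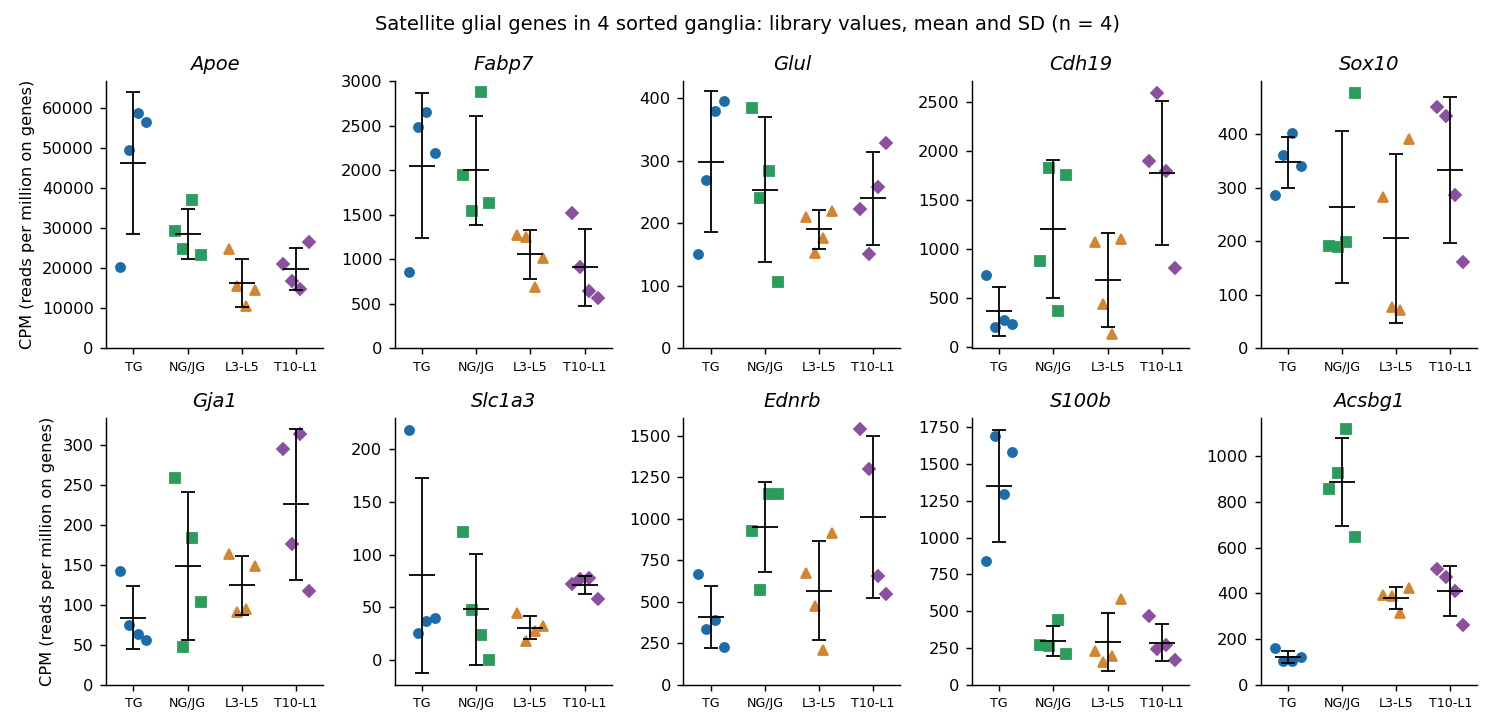
CPM (vertical axes, linear, each with its own range) of the 10 satellite glial genes by ganglion (horizontal axes), 1 point per library, ordered by replicate number, with the mean as a line and the SD as bars (n = 4). S100b is highest in all 4 TG libraries at 839 to 1690 CPM, Acsbg1 highest in the 4 NG/JG libraries at 648 to 1117 CPM, and TG library 1 lies apart from the other TG libraries for Apoe, Fabp7, Cdh19 and Slc1a3.

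Whether any of the 10 genes differed between ganglia at all was asked with 1 test over the 16 libraries. *Acsbg1*, *Apoe* and *S100b*, 3 of 10, passed at an adjusted p under 0.05 (quasi-likelihood F test with Benjamini-Hochberg adjustment over 14236 genes), where 3.01% of all genes tested passed. At an unadjusted p under 0.05 there were 5 of 10, with *Fabp7* and *Cdh19* added, beside 17.5% of all genes. DESeq2 called 4 of 10, with *Fabp7* added, beside 12.7% of all genes.

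The 6 pairs of ganglia were then compared, each on its own 8 libraries. TMM factors over the 16 libraries were 0.769 to 0.820 in TG libraries 2 to 4 and 0.945 in TG library 1. Elsewhere they were 0.893 to 1.138. A TG fold change is therefore larger than the ratio of mean CPM. TG against T10-L1 DRG, head against trunk, had the most members past the threshold of the 6 pairs, by the quasi-likelihood test and by DESeq2. *S100b* rose in TG and *Acsbg1* and *Cdh19* fell, 3 of 10 at an adjusted p under 0.05, beside 5.87% of all genes tested. At an unadjusted p there were 7 of 10, beside 21.6% of all genes, with *Apoe* and *Fabp7* at higher and *Gja1* and *Ednrb* at lower levels in TG. DESeq2 called 5, adding *Apoe* and *Fabp7*, beside 15.4% of all genes. The median log2 fold change of the 10 genes was 0.45 and that of all genes tested -0.04. One library set this median, which was -0.03 without TG library 1, against -0.12 over all genes. Without scaling factors it was 0.12, against -0.39. The 3 calls were lost when any of TG libraries 2, 3 and 4 or T10-L1 DRG libraries 1, 2 and 3 was left out, where at most 1 gene of the whole table was called. Without TG library 1, 8 of the 10 passed, all but *Sox10* and *Slc1a3*, beside 26.7% of all genes. *Glul* was then at log2 0.93 (adjusted p = 0.0458).

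TG against L3-L5 DRG had 0 of 10 past the adjusted threshold by the quasi-likelihood test, as 0% of all genes passed. At an unadjusted p under 0.05 there were 6 of 10 (*Apoe*, *Fabp7*, *Glul*, *Slc1a3* and *S100b* higher and *Acsbg1* lower in TG), beside 18.2% of all genes. DESeq2 called *Acsbg1*, *Apoe*, *Fabp7* and *S100b*, beside 11.3% of all genes. *Slc1a3* rested on TG library 1, at log2 1.65 with it and 0.61 without it (adjusted p = 0.204 and 0.337). The median log2 fold change of the 10 was 1.12 and that of all genes -0.03. Other lists moved in this pair as well. Of the 12 neuronal markers 11 were below 0, with a median of -1.17, whereas the 8 macrophage markers had a median of 2.02. The 6 oligodendrocyte markers tested had a median of 5.33. In pairs without TG only 2 of the 7 listed passed the low-count filter. Some thus entered through their TG reads alone, which bound this median to be high. The part of these lists in the median of the 10 was not tested. Without TG library 1, 5 of 10 passed, namely *Acsbg1*, *Apoe*, *Fabp7*, *Glul* and *S100b*, beside 15.2% of all genes.

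TG against NG/JG, the pair of cranial ganglia, gave 1 of 10 past the adjusted threshold, *Acsbg1*, which was lower in TG, beside 0.051% of all genes. Unadjusted, 4 of 10 passed, with *S100b* higher and *Cdh19* and *Ednrb* lower in TG, beside 10% of all genes. DESeq2 called *Acsbg1* and *S100b*, beside 6.35% of all genes. The median log2 fold change of the 10 was 0.37, or 0.16 without TG library 1, against -0.05 over all genes. Neuronal markers had a median of -0.28 and macrophage markers one of 2.32. The oligodendrocyte markers tested had one of 7.96, again bound to be high because some passed the low-count filter through TG alone. The call of *Acsbg1* was lost without any of TG libraries 2 to 4 or NG/JG libraries 2 and 3, and *S100b* was added without TG library 1. Over all genes, fits that left out 1 library called 1 to 325.

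Between the 2 levels of DRG, L3-L5 against T10-L1, 0 of 10 passed by the quasi-likelihood test, as 0% of all genes passed. At an unadjusted p there were 3 of 10 (*Cdh19*, *Gja1* and *Slc1a3*, all lower in L3-L5 DRG), beside 6.07% of all genes, and DESeq2 called *Slc1a3*, beside 0.487%. The 10 genes nevertheless leaned to 1 side, with 9 of 10 log2 values below 0 and a median of -0.57, against 0.03 over all genes. *Fabp7* was the exception at 0.18 ± 0.37 SE, and *S100b*, at -0.04, turned to 0.02 without scaling factors. Leaving out L3-L5 DRG library 1, 2 or 3 or T10-L1 DRG library 1 put 2 of 10 above 0. Over the fits that left out 1 library, the median of the 10 ran from -0.80 to -0.41. The 12 neuronal markers leaned the other way, with all 12 log2 values above 0, a median of 1.07 and none past the adjusted threshold by either tool. L3-L5 DRG libraries 2 and 3 had the lowest sums of the 10 genes and the highest sums of neuronal markers of all 16 libraries, and the part of this balance in the lean was not tested.

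NG/JG against L3-L5 DRG had 0 of 10 past the adjusted threshold, as 0% of all genes passed. At an unadjusted p there were 3 of 10 (*Acsbg1*, *Apoe* and *Fabp7*, all higher in NG/JG), beside 6.04% of all genes, and DESeq2 called *Acsbg1*, beside 5.28%. All 10 log2 values were above 0, with a median of 0.81 against 0.01 over all genes, and 9 of 10 were above 0 without L3-L5 DRG library 2, NG/JG library 1 or NG/JG library 3. The neuronal markers leaned the other way here too, with 11 of 12 below 0 and a median of -0.73, and the part of this balance was not tested. NG/JG against T10-L1 DRG also had 0 of 10, beside 0.0322% of all genes. Unadjusted, *Acsbg1* and *Fabp7* made 2 of 10, beside 5.91% of all genes, and DESeq2 called *Acsbg1*, beside 5.45%. Here 6 of 10 values were above 0, with a median of 0.07 against 0.02. Without scaling factors *Ednrb* turned from 0.03 to -0.09.

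**Figure D3:**
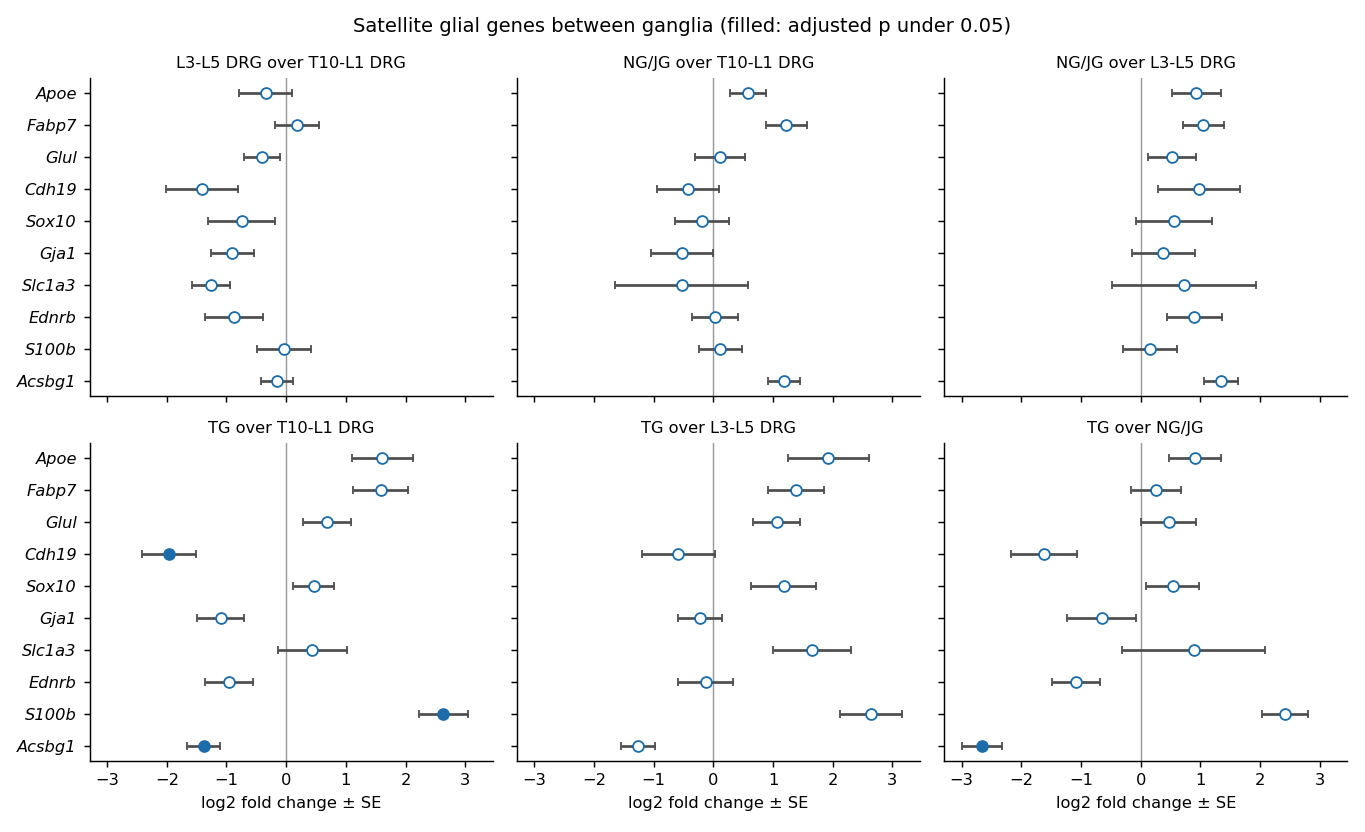
TMM-scaled log2 fold change (horizontal axes) of the 10 satellite glial genes (vertical axes) in the 6 pairs of ganglia, with SE as bars, 4 libraries against 4. Filled points passed at an adjusted p under 0.05, namely Cdh19, S100b and Acsbg1 in TG over T10-L1 DRG and Acsbg1 in TG over NG/JG. The 10 genes do not move together, since S100b is above 0 by more than 2 in the 3 pairs with TG while Acsbg1 is below 0 in all 3.

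Over the 16 libraries the 10 genes did not rise and fall as a block, while within ganglia most pairs of genes had a correlation above 0. Correlations of log2(CPM + 1) over the 16 libraries are given as description only, since the points share 4 ganglia and CPM values are bound to a common total. Of the 45 pairs of genes, 24 had a Pearson r above 0 and 21 below 0, with a median of 0.0253. After each ganglion was centred on its own mean, 33 of the 45 pairs were above 0, with a median of 0.264. The same share was not computed for pairs of other genes, so it cannot be read as particular to the 10. *Apoe* went with *Fabp7* (r = 0.780, Spearman rho = 0.762) and with *Glul* (r = 0.641, rho = 0.712), and after centring each ganglion on its own mean r was 0.711 and 0.644. *Cdh19* went with *Ednrb* (r = 0.789, rho = 0.738, and 0.632 after centring), and *Gja1* with *Ednrb* (r = 0.676, rho = 0.729, and 0.579 after centring). Leaving out the 2 libraries farthest from the median of the first gene gave r of 0.723 for *Apoe* with *Fabp7*, 0.458 for *Apoe* with *Glul*, 0.673 for *Cdh19* with *Ednrb* and 0.812 for *Gja1* with *Ednrb*. *S100b* and *Acsbg1* had the lowest r, at -0.674 (rho = -0.324). After centring it was 0.428.

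The genes whose log2(CPM + 1) was most like the mean standardized profile of the 10 were sought among the 14226 other genes that passed the filter over 16 libraries. They were *Sfrp5* (r = 0.878), *1810011O10Rik* (r = 0.861), *Vim* (r = 0.842), *Arhgef40* (r = 0.834) and *Igsf11* (r = 0.830). *Sfrp5* averaged 707 CPM and *Vim*, the intermediate filament vimentin, 1118 CPM. The 10 genes themselves shared this profile only loosely. The r of each with the mean of the other 9 ran from -0.005 for *Acsbg1* to 0.524 for *Sox10*. The mean profile itself was lowest in L3-L5 DRG libraries 3 and 2, at -1.13 and -0.734 SD units, and highest in T10-L1 DRG library 1 and NG/JG library 1, at 0.613 and 0.578.

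Genes that work beside the 10 were taken from lists by role. Of 8 other genes of the glutamate and glutamine cycle and potassium buffering, 6 or 7 could be tested in each pair. None passed in any pair by the quasi-likelihood test, beside 0% to 5.87% of all genes. At an unadjusted p under 0.05 there were 0 to 3 per pair, beside 5.91% to 21.6% of all genes. The highest count, 3 of 7, was in NG/JG against L3-L5 DRG, beside 6.04%. DESeq2 called *Slc1a2* in the 3 pairs with NG/JG, the GABA transporter *Slc6a11* in NG/JG against L3-L5 DRG and in TG against NG/JG, and *Slc38a2* in TG against NG/JG and against T10-L1 DRG. *Slc1a2*, another glial glutamate transporter, differed over the 4 ganglia (adjusted p = 0.0364, a call lost in 13 of 16 fits that left out 1 library), with 0 reads in all 4 NG/JG libraries and 70 to 390 reads in T10-L1 DRG. The glutamine transporter *Slc38a2*, the most abundant of that list, had means of 183, 568, 361 and 536 CPM in TG, NG/JG, L3-L5 and T10-L1 DRG (adjusted p = 0.0685 over the 4 ganglia). Of the genes of lipid uptake and synthesis, the fatty acid desaturase *Scd2* was the most abundant and did not pass in TG against T10-L1 DRG (1252 CPM in TG and 2670 CPM in T10-L1 DRG, adjusted p = 0.229). *Hmgcs1* was listed at 0 in all libraries.

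None of 7 other connexin and pannexin genes passed in any pair by the quasi-likelihood test, beside 0% to 5.87% of all genes. There were 0 to 2 per pair at an unadjusted p under 0.05, beside 5.91% to 21.6% of all genes. By DESeq2 *Gjc1* was lower in NG/JG than in either DRG level, *Gjb6* was lower in NG/JG than in TG and T10-L1 DRG, and *Gjb1* was higher in TG than in T10-L1 DRG. *Gjc3*, a connexin of myelinating and satellite glia and the most abundant of them, had 244 ± 52.2 CPM in TG and 117 ± 84.9 CPM in L3-L5 DRG (log2 1.48 ± 0.56 SE, adjusted p = 0.185). None of 5 genes of the endothelin system passed the quasi-likelihood test either. In TG against T10-L1 DRG 1 had an unadjusted p under 0.05, beside 21.6% of all genes. *Ece1*, the enzyme that matures endothelins, was the most abundant of these, at 156 CPM in TG and 386 CPM in T10-L1 DRG (adjusted p = 0.0813 by the quasi-likelihood test and 0.0175 by DESeq2). Of 16 further genes of glia and the crest lineage, 15 were tested and 1 passed in a pair by the quasi-likelihood test, a share near the 5.87% of all genes in that pair. It was *Fxyd1*, a regulator of the sodium pump, which rose 3.37-fold in TG over T10-L1 DRG (log2 1.75 ± 0.41 SE, adjusted p = 0.038). DESeq2 called 4 there, with *Lgi4*, *Matn2* and *Ptprz1* lower in TG, 3 in TG against L3-L5 DRG (*Fxyd1* and *Sostdc1* higher and *Ptprz1* lower in TG) and *Ptprz1* in TG against NG/JG, beside the 15.4%, 11.3% and 6.35% of all genes given above. The 15 genes had a median log2 value of -0.47 in that pair, against -0.04 over all genes. The list summed to 16371 CPM in TG library 1 and to between 6326 and 6839 CPM in TG libraries 2 to 4, so this library had more of it although it had less *Apoe*.

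RNA of other cell types was present and moved with some of these results. The 9 genes listed for Schwann cell myelin summed to between 23158 and 56119 CPM in TG and between 8325 and 48763 CPM elsewhere. *Mbp*, a myelin protein, averaged 21558 of the 37048 CPM of this list in TG. Oligodendrocyte transcripts were present in TG as well, so there the list cannot tell myelin RNA of Schwann cells from that of oligodendrocytes. *Mbp* rose 4.18-fold in TG over T10-L1 DRG (log2 2.07 ± 0.52 SE, adjusted p = 0.046), the pair in which *S100b*, also made by Schwann cells, rose. The 9 myelin genes had a median log2 value of 0.80 there. The library with the highest myelin sum also had the highest *S100b* in L3-L5 DRG (library 4, 582 CPM) and T10-L1 DRG (library 1, 465 CPM). In TG library 1, with the highest myelin sum of TG, *S100b* was the lowest of TG, at 839 CPM. NG/JG library 1, at 31659 CPM of myelin genes, had 271 CPM of *S100b*, below the 441 CPM of library 3. The part of Schwann cells in the *S100b* level was not tested. Oligodendrocyte markers, 7 in number, summed to 293 to 1736 CPM in TG and to 1.94 to 441 CPM in the other 12 libraries, where 1 of the 7 had no read in NG/JG and 1 none in L3-L5 DRG. Of these *Hapln2* differed between TG (21 to 632 reads) and T10-L1 DRG (0 or 1 read; adjusted p = 0.0254), and *Mog* over the 4 ganglia (adjusted p = 0.0226). *Mobp*, the most abundant oligodendrocyte marker, averaged 572 CPM in TG. TG library 1 had the highest sums of both lists among TG libraries, 56119 CPM for the myelin genes and 1736 CPM for the oligodendrocyte markers. It also had the highest *Slc1a3* and *Cdh19* of its group. Astrocyte markers, 8 in number and without *Slc1a3* among them, were highest in the same library at 359 CPM, against 41.5 to 75.8 CPM in the other TG libraries and 75.7 to 227 CPM elsewhere. Their part in its *Slc1a3* level was not tested. *Aqp4*, the most abundant astrocyte marker, did not pass in any pair by either tool. All 8 macrophage markers were detected in each ganglion, *C1qb* being the most abundant, and none passed in any pair by either tool. At an unadjusted p under 0.05 there were 0 to 2 per pair, beside 5.91% to 21.6% of all genes.

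Among 8 vascular markers *Rgs5* and *Acta2*, genes of mural cells, fell in NG/JG against T10-L1 DRG (adjusted p = 0.00199 and 0.0386), with 1 or 2 reads per NG/JG library for *Rgs5* and at most 7 for *Acta2*. *Rgs5* also fell in TG against T10-L1 DRG (log2 -2.02 ± 0.50 SE, adjusted p = 0.0448), while *Cldn5* of endothelium, the most abundant of the list, did not pass. Of 6 fibroblast genes *Col3a1* fell in TG against T10-L1 DRG (log2 -2.33 ± 0.59 SE, adjusted p = 0.046), and *Dcn*, the most abundant, was at 4909 CPM in TG and 2679 CPM in T10-L1 DRG (adjusted p = 0.233). The 5 melanocyte markers, *Tyrp1* first among them, summed to at most 97.8 CPM in any library. Several of these calls were lost when 1 library was left out. Those of *Mbp*, *Fxyd1*, *Col3a1* and *Rgs5* in TG against T10-L1 DRG were lost when any library other than TG library 1 was left out. Those fits called 0 to 119 genes of the whole table, against 758 in the full fit. The call of *Hapln2* was lost without any library other than TG library 1 and T10-L1 DRG library 4. That of *Acta2* in NG/JG against T10-L1 DRG was lost without any other than T10-L1 DRG library 3. *Rgs5* in NG/JG against T10-L1 DRG passed in all 8 such fits, which called 1 to 5 genes of the whole table, against 4 in the full fit. No neuronal marker passed in any pair by the quasi-likelihood test. There were 1 or 2 per pair at an unadjusted p under 0.05, beside 5.91% to 21.6% of all genes. By DESeq2 *Avil* was lower in TG than in both DRG levels and lower in NG/JG than in L3-L5 DRG, and *Syt1* was lower in TG than in L3-L5 DRG. Over the 4 ganglia *Avil* alone of the 12 passed the quasi-likelihood test (adjusted p = 0.0226) and DESeq2 added *Syt1*, with *Prph* the most abundant of the list. How far the cell types behind these lists contributed to the levels of the 10 genes was not tested.

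**Figure D4:**
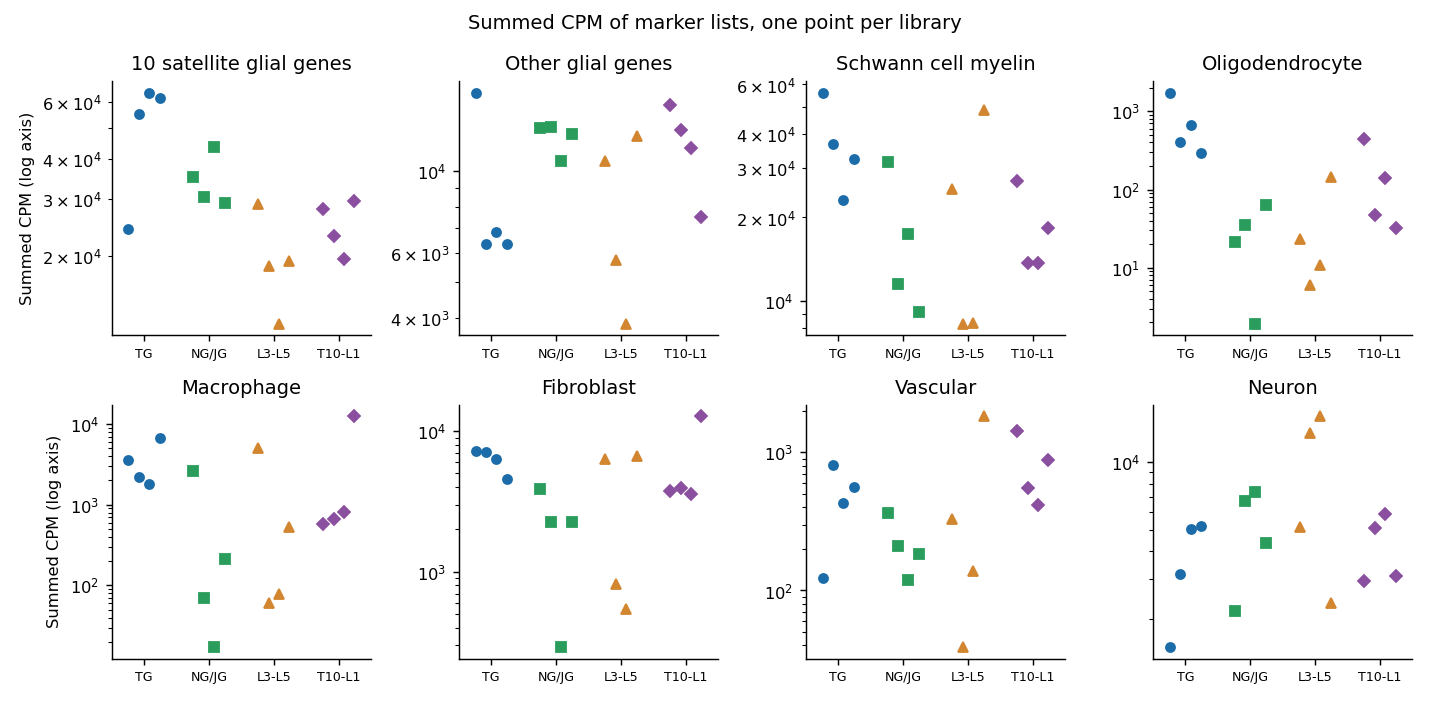
Summed CPM (vertical axes, log scale, each with its own range) of the 10 satellite glial genes and of 7 marker lists by ganglion (horizontal axes), 1 point per library ordered by replicate number. Oligodendrocyte markers lie at 293 to 1736 CPM in TG, and the neuronal list is highest in L3-L5 DRG libraries 2 and 3. For the other glial genes, TG library 1 at 16371 CPM lies apart from the other TG libraries but near T10-L1 DRG library 1 at 15191 CPM.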

How the data were processed

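The deposited values were raw read counts per gene symbol, 1 set per library. Per the labels and the study's methods, the authors prepared oligo dT SMART-seq2 cDNA, sequenced single reads, aligned them to mm9 with TopHat2 and counted with HTSeq. Annotation, strand setting and versions are not given in the sources used here. Between 58.6% and 85.2% of each file's reads were unassigned rows, which were left out. CPM used reads on genes, and RPKM the union of exons in GENCODE M1 on NCBIM37, the same build as mm9. Each pair, and all 4 ganglia together, was fitted with edgeR 4.0.16 in R 4.3.3 (TMM, filterByExpr, quasi-likelihood test, Benjamini-Hochberg adjustment over all genes tested). DESeq2 1.42.0, RLE factors, no low-count filter, a replicate block, 1 fit over 16 libraries and leaving out each library were alternatives. The fits were tested on simulated data. Members and lists were chosen with earlier results of these data known. Named are the 10 members, *Pirt*, listed genes past an adjusted p of 0.05, the most abundant gene of each list, and the 5 genes most like the members' mean profile; some genes that this rule names are not reported here. The deposited replicate numbers were not used as pairs in the main fits. Same-numbered deviations correlated at -0.12 to 0.18, which does not settle whether the libraries were paired. Python 3.11.15 was used for summaries and figures.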

Additional observations from a re-analysis of the deposited data

Results flagged for a closer look

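Single libraries stood outside the other 3 of their group for 4 of the 10 genes. The distance of a library from its nearest neighbour was read against Dixon's limit for groups of 4, in 44 groups of values, and chance alone passes that limit in about 1 in 20. *Cdh19* was at 738.5 CPM in TG library 1, against 208 to 273 CPM in the other 3. *Slc1a3* was at 218.0 CPM in the same library, against 25.8 to 40.0 CPM. *Sox10* was at 478.3 CPM in NG/JG library 4, against 190 to 199 CPM, and that library held only 2 reads of *Slc1a3*. *S100b* was at 582.4 CPM in L3-L5 DRG library 4, the library with 66.6% of unique reads outside genes and 48763 CPM for the listed myelin genes, against 156 to 228 CPM in the other 3. Whether those values share a source was not tested.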

How the results depend on the processing

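Counts of the 10 genes called depended on the test and on single libraries, while no log2 fold change with an unadjusted p under 0.05 changed sign. DESeq2 called 5 genes for TG against T10-L1 DRG, 4 for TG against L3-L5 DRG, 2 for TG against NG/JG and 1 in each of the other 3 pairs. With all 16 libraries in 1 fit, TG against L3-L5 DRG had 3, TG against NG/JG 2 and NG/JG against L3-L5 DRG 1, while TG against T10-L1 DRG had 3 with *Apoe* gained and *Cdh19* lost (adjusted p = 0.123). Over all genes that fit called 206, 484, 83 and 238 for these pairs, in the same order. Without the filter on low counts TG against NG/JG had 2, beside 56 of all genes. Leaving out single libraries gave 0 to 8 for TG against T10-L1 DRG, 0 to 5 for TG against L3-L5 DRG, 0 to 2 for TG against NG/JG, 2 to 4 over the 4 ganglia and 0 in the other 3 pairs, with fewer libraries in each fit. Over all genes the same fits called 0 to 3583, 0 to 2038 and 1 to 325 in the pairs with TG, in that order, and 33 to 1035 over the 4 ganglia. The highest counts came without TG library 1. Over the 4 ganglia the calls of *Avil* and *Mog* were lost without TG library 2, 3 or 4, and that of *Avil* also without L3-L5 DRG library 2 or 3. The replicate block gave 0 for TG against T10-L1 DRG and 0 for TG against NG/JG, 2 over the 4 ganglia, where *Apoe* was lost (adjusted p = 0.0565), and 0 elsewhere. Over all genes the block called 0 for TG against T10-L1 DRG, 1 for TG against NG/JG, 184 over the 4 ganglia and 0 elsewhere. In TG against T10-L1 DRG the log2 values moved little, from 2.63 to 2.67 for *S100b* and from -1.38 to -1.36 for *Acsbg1*. Every call of a listed gene in a pair that the report gives was lost under the block too, among them *Rgs5* and *Acta2* in NG/JG against T10-L1 DRG (adjusted p = 0.145 and 0.611) and *Mbp* in TG against T10-L1 DRG (adjusted p = 0.104). In the fit over 16 libraries those of *Acta2*, *Col3a1*, *Fxyd1*, *Mbp* and, in TG against T10-L1 DRG, *Rgs5* were lost, and *Fxyd1* and *Mbp* were lost without the low-count filter and without scaling factors. Whether the numbers pair the libraries cannot be settled from these values. In NG/JG against L3-L5 DRG every library correlated best with its own number (0.0503 to 0.177). In TG against T10-L1 DRG this held for libraries 1, 2 and 4 but not 3, and in L3-L5 against T10-L1 DRG for none. Scaled to all reads of the file, unassigned ones included, summed levels were 13604 CPM in TG, 11356 in NG/JG, 8848 in T10-L1 DRG and 6457 in L3-L5 DRG, lower by construction and in the same order. Without scaling factors, added after the data were seen, the median of all genes moved by -0.38 for TG against T10-L1 DRG, -0.39 against L3-L5 DRG, -0.20 against NG/JG and -0.11 for NG/JG against L3-L5 DRG. Of 461 refits of single genes, the 10 and the listed ones, 342 kept their side of the threshold, 92 lost and 27 gained it. Among the 10 genes, only *Slc1a3* in NG/JG library 4 was under the floor of 3 counts.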
